A study of Mus musculus with 10 samples.

Results

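The antiviral interferon-stimulated genes are 37 mouse genes whose products sense viral nucleic acid, stop viral translation and budding, or attach ISG15 and ADP-ribose to proteins. They were taken by symbol from a list that was chosen with earlier results of these data known, and are 37 of the 23992 gene symbols measured. All 37 were found, and all 37 passed the filter on low counts in both comparisons. RNA was sequenced from C57BL/6J Tregs, the Foxp3-expressing CD4 T cells that hold immune responses in check, in 10 libraries of 4 groups. TCR+TSLP (2 libraries) and TCR (2 libraries) were wild-type natural spleen Tregs kept for 24 h in culture with anti-CD3 and anti-CD28 antibodies, with or without thymic stromal lymphopoietin (TSLP), an epithelial cytokine whose receptor contains the product of Crlf2. Lung Crlf2-deleted (Crlf2fl/fl Foxp3YFP-Cre, 3 libraries) and lung control (Foxp3YFP-Cre, 3 libraries) were Tregs from the allergic lungs of ovalbumin-immunized mice, and both genotypes carry the Cre recombinase expressed from the Foxp3 gene, so the deletion is aimed at cells that express Foxp3. The labels do not say whether libraries of a group came from separate animals.

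Interferons are secreted proteins that bind cell surface receptors. Type I interferons act through Ifnar1 and Ifnar2, the kinases Jak1 and Tyk2, and a transcription factor complex that includes Stat2 and Irf9 and binds interferon-stimulated response elements in promoters. Interferon-gamma acts through Ifngr1 and Ifngr2 and leads to binding at a different sequence, and many antiviral genes respond to both. T cells respond to interferon as well as producing interferon-gamma, and the antiviral genes are often read as a record of interferon exposure. The RNA sensors among these genes also feed back on the pathway, since they can trigger interferon production.

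Reads on the transcript kept for each gene symbol (the one with the highest mean count) numbered 34852308 and 51671901 in the TCR+TSLP libraries. In the TCR libraries they numbered 27866031 and 27237313. They numbered 9647686, 11581598 and 18349039 in the lung Crlf2-deleted libraries and 7970213, 1439675 and 12179230 in the lung control libraries. Crlf2 stood at 9.06, 6.73 and 3.55 normalised reads (CPM after scaling for library composition) in Crlf2-deleted lung libraries, against 92.8, 146 and 105 in control lung libraries, which goes with the labels. Foxp3 was read in all 10 libraries. Lung control library 3 stood apart: its summed haemoglobin genes were 113300 normalised reads (1236 and 4589 in the other control libraries), and its 5 Treg markers summed to 1184 (2406 and 2340 in the others). Lung results are therefore also given without it.

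Many of the antiviral genes have a recognisable interferon response sequence close to their start. RefSeq promoters (GRCm38.p6, from 250 bases before to 50 bases after the start) were at hand for 28 of the 37 genes. The core of the interferon-stimulated response element, written as GAAA, any 2 bases and GAAA, was searched on both strands. It occurred in 16 of these 28 genes (57.1%), against 1079 of all 27025 genes with a promoter (3.99%). The form with 3 bases between the GAAA runs was in 6 of 28 (21.4%, against 3.17% of all genes), and the letters TTCNNNGAA, the interferon-gamma activated type of sequence, were in 6 of 28 (21.4%, against 9.55%). Matches of the different patterns can overlap. Of the 24 matches to the response element core in these genes, 17 lay within 150 bases before the start, and 7 genes had more than 1 match. A match describes the letters and is not a measured binding site. The 6 stretches below belong to genes among the 12 with the smallest p-values in the lung comparison or, for Ifit3, to a gene whose Crlf2-deleted libraries differed widely among themselves. Each is read 5′ to 3′ on the gene's own strand, and capitals mark the response element core or its reverse complement. They lie at chr4:156200819-156200918 (Isg15, minus strand), chr19:34583353-34583452 (Ifit3, plus), chr12:26456493-26456592 (Rsad2, minus), chr8:71537523-71537622 (Bst2, minus), chr5:92349023-92349122 (Cxcl10, minus) and chr15:79892248-79892347 (Apobec3, plus).
Isg15: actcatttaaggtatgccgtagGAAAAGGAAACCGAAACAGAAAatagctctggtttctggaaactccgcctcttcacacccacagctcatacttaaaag
Ifit3: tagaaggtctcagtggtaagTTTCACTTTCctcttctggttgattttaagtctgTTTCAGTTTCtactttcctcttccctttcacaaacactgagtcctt
Rsad2: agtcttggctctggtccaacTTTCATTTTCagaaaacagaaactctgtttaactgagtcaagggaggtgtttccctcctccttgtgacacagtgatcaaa
Bst2: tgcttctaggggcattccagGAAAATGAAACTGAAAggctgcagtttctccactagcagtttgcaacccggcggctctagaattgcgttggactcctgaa
Cxcl10: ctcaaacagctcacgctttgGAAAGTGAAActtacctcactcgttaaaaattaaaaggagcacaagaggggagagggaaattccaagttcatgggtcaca
Apobec3: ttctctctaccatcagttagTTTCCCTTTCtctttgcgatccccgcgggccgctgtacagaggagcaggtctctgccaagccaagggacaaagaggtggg
In Isg15 there were 3 overlapping matches, the first beginning 78 bases before the start, and in Bst2 2 overlapping matches began 130 and 124 bases before it. The Ifit3 matches lay 156 and 122 bases before the start on the other strand, and the Cxcl10 match lay 213 bases before it.

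The lung comparison asked what loss of the TSLP receptor subunit in Foxp3-expressing cells does to Tregs of the allergic lung. The antiviral genes were lower in Crlf2-deleted Tregs as a block. Of the 37, 23 were lower past the threshold (62.2%, edgeR quasi-likelihood test, Benjamini-Hochberg adjusted p under 0.05), against 1.01% of the 12717 genes tested, and 0 were higher, against 0.771% (1.79% of all genes in either direction). At an unadjusted p under 0.05 all 37 passed, all of them lower, as did 2017 of the 12717 genes in either direction. The median log2 fold change was -2.11 (all genes -0.04), and the range was -3.35 for Cxcl10 to -0.56 for Ifi35. In all 37 genes every Crlf2-deleted library was below every control library, against 11.6% of all genes, and 34 of the 37 were lower by 2-fold or more. In bulk RNA, fewer cells that express these genes and less RNA per cell cannot be told apart.

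The libraries of each genotype were not alike in size of response. Summed over the 37 genes, the level was 1680, 2685 and 1665 normalised reads in the Crlf2-deleted libraries, against 7955, 7497 and 5138 in the control libraries. Crlf2-deleted library 2 was the highest of its group in 35 of the 37 genes, and control library 3 was the lowest of its group in 31. Without control library 3, 29 of the 37 genes were lower past the threshold (2.17% of all genes), including all 23 of the first count, and the median was -2.33. Without Crlf2-deleted library 2 the count was 25 (0.620% of all genes). The counts fell to 5 without control library 1 (0.128%), 2 without control library 2 (0.0748%), and 1 without Crlf2-deleted library 1 (0.0150%) or 3 (0.0304%), while the number of genes called overall fell to between 4 and 33. All 37 log2 fold changes were below 0 in each of these 6 fits, and Apobec3 was called in each of the 6.

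**Figure D1:**
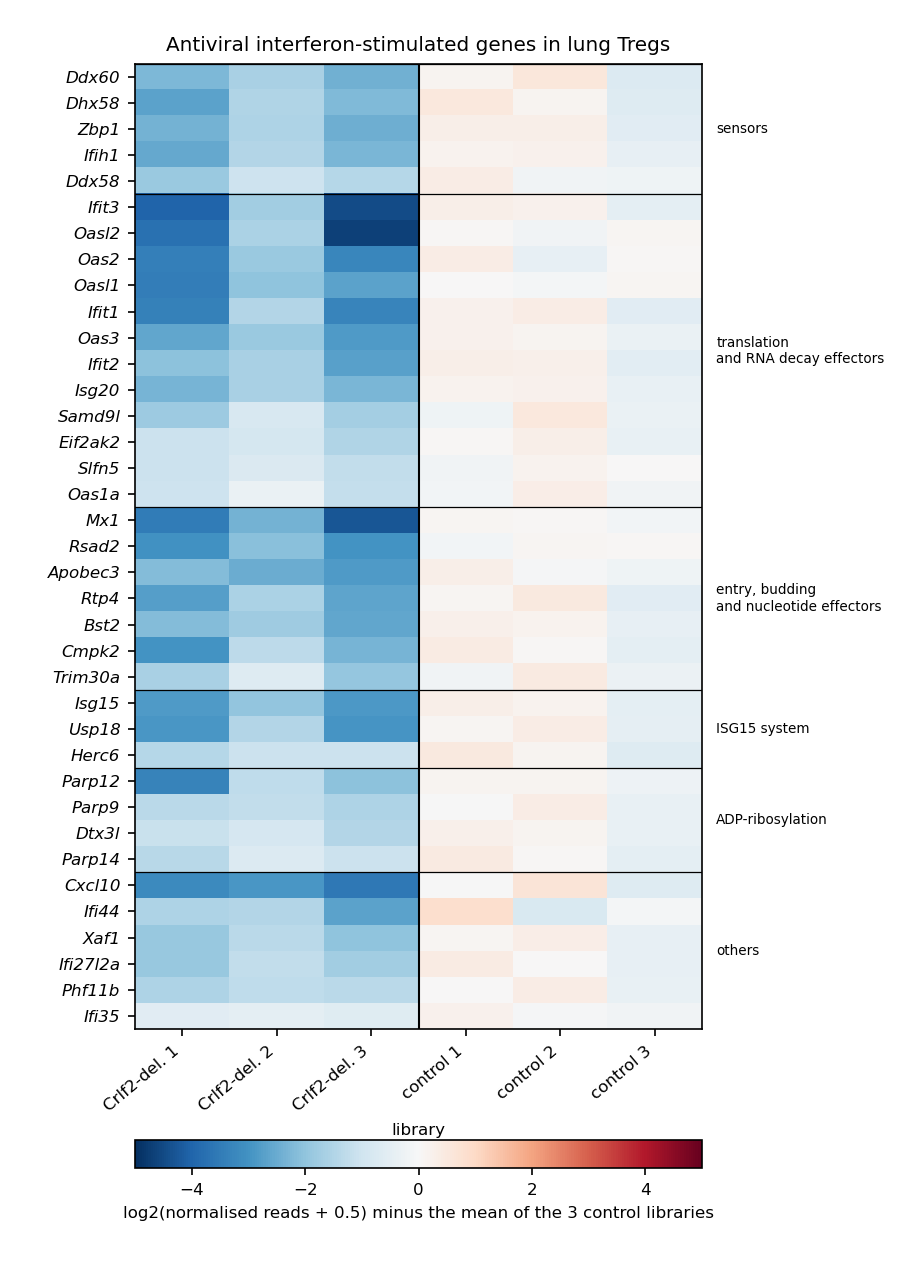
Level of each of the 37 genes in every lung library, as log2 of normalised reads plus 0.5 minus the mean of the 3 control libraries (colour), with genes in rows by role and libraries in columns. The Crlf2-deleted columns are blue in all 37 rows, with library 2 the palest of the 3 in 35 of them, and control library 3 is the lowest control in 31.

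The sensors detect viral nucleic acid inside the cell. All 5 were lower (median log2 fold change -2.11). Ifih1 encodes MDA5, a helicase that recognises long double-stranded RNA. It had 17.8, 38.4 and 21.5 normalised reads in Crlf2-deleted libraries, against 122.5, 127 and 81.2 in control libraries. The lowest control was above the highest Crlf2-deleted library, and Ifih1 was lower by a log2 of -2.08 (SE 0.31, adjusted p = 0.0242, edgeR). Ddx58, which encodes RIG-I, the sensor of RNA with a free triphosphate end, was lower by less (-1.43, SE 0.25, adjusted p = 0.0337). Zbp1, a sensor of Z-form nucleic acid that can start cell death, had a log2 fold change of -2.11, Ddx60, a helicase linked to RIG-I signalling, -2.18, and Dhx58, the regulator LGP2, -2.14.

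The largest role group blocks translation of viral RNA or degrades it, and 6 of its 12 genes were lower (median -2.25). Isg20 is an exonuclease of RNA. It had 53.2, 88.0 and 55.5 normalised reads in Crlf2-deleted libraries, against 302, 309.9 and 211 in control libraries (log2 fold change -2.06, SE 0.24, adjusted p = 0.0119). Oas3, one of the synthetases whose oligoadenylate product activates RNase L, had 49.4, 83.5 and 41.8 in Crlf2-deleted libraries, against 347, 330.5 and 236 in control libraries (-2.39, SE 0.28, adjusted p = 0.0125). In both genes the groups were well separated, with Crlf2-deleted library 2 the highest of its group and control library 3 the lowest of its own. Oas2 (-2.78), Oasl1 (-2.72, in mouse a repressor of Irf7 translation), Ifit2 (-2.12) and the Schlafen gene Slfn5 (-0.999) were also lower past the threshold.

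Ifit1, Ifit3 and Oasl2 had large differences with wide errors and did not pass. Ifit3, whose product works in a complex with Ifit1 on viral RNA, had 14.4, 70.7 and 10.2 normalised reads in Crlf2-deleted libraries, against 286, 277 and 166 in control libraries. The groups did not overlap, but Crlf2-deleted library 2 was several times the other libraries of its genotype. The log2 fold change of Ifit3 was -2.93 with an SE of 0.84 (adjusted p = 0.182). Ifit1 was alike, at 20.7, 80.2 and 22.1 in Crlf2-deleted libraries, against 255, 286 and 147.5 in control libraries (-2.48, SE 0.63, adjusted p = 0.142). Oasl2 (-2.84, adjusted p = 0.183) had the same spread among Crlf2-deleted libraries. Eif2ak2, the kinase PKR that halts translation on double-stranded RNA, was just outside the threshold (-1.16, SE 0.24, adjusted p = 0.0525) and was past it without control library 3 (adjusted p = 0.0169). Samd9l (-1.42) and Oas1a (-0.82) did not pass. Ifit1, Ifit2 and Ifit3 lie together on chromosome 19, and the 3 Oas genes together on chromosome 5. Some of them, such as Oas1a, have close relatives (Oas1b and Oas1g were also measured), so reads of those genes may be divided between copies.

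Genes that act on viral entry, budding or the nucleotide pool included Apobec3, the gene with the smallest p of the 37, and 5 of the 7 were lower (median -2.28). Apobec3 (chr15:79892058-79918218) encodes a cytidine deaminase that mutates retroviral DNA. It had 48.7, 39.2 and 30.2 normalised reads in Crlf2-deleted libraries, against 269, 212 and 187 in control libraries. This was the one gene of the 37 in which the Crlf2-deleted library 1 was the highest of its group, and the difference was -2.51 on the log2 scale (SE 0.22, adjusted p = 0.00465). Rsad2 (viperin) makes a chain-terminating nucleotide, and it had 10.3, 20.3 and 10.7 in Crlf2-deleted libraries, against 79.3, 95.1 and 90.9 in control libraries. Control library 3 was not low here, and the difference was -2.68 on the log2 scale (SE 0.28, adjusted p = 0.00914). Bst2 (tetherin) holds budding virions on the cell surface. It had 83.6, 109 and 61.1 in Crlf2-deleted libraries, against 444, 421 and 281.5 in control libraries (-2.18, SE 0.25, adjusted p = 0.0119).

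Mx1, a GTPase that traps viral nucleoprotein and is defective in most laboratory mouse strains, had only 3.31, 7.93 and 1.72 normalised reads in Crlf2-deleted libraries, against 45.6, 43.8 and 38.3 in control libraries (log2 fold change -3.31, SE 0.51, adjusted p = 0.0261). The control libraries lay within a narrow range and the Crlf2-deleted ones were all below it. Rtp4, a receptor transporter protein gene, was lower too (-2.28, adjusted p = 0.0432). Cmpk2, the nucleotide kinase next to Rsad2 on chromosome 12, had a similar difference that did not pass (-2.11, SE 0.45, adjusted p = 0.0782), and Trim30a did not pass either (-1.33, adjusted p = 0.126).

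In the ISG15 system 1 of 3 genes passed. Isg15 (chr4:156199424-156200818) is the ubiquitin-like modifier itself, and had 21.0, 38.8 and 20.6 normalised reads in Crlf2-deleted libraries, against 189, 174.5 and 111 in control libraries. Its groups were far apart (log2 fold change -2.56, SE 0.31, adjusted p = 0.013). Usp18, which removes ISG15 and damps the type I receptor, had a difference of like size with a wider error (-2.30, SE 0.47, adjusted p = 0.0765), and Herc6, the mouse ligase that attaches ISG15, one of -1.25 (adjusted p = 0.0723). Among the 4 genes of ADP-ribosylation the differences were smaller (median -1.26), and 2 were lower. Parp9 had 48.9, 53.1 and 42.1 in Crlf2-deleted libraries, against 122, 161.5 and 96.9 in control libraries (-1.39, SE 0.21, adjusted p = 0.0232). All 3 Crlf2-deleted values were close together and under the lowest control. Its partner Dtx3l, an ubiquitin ligase, was lower by -1.14 on the log2 scale (adjusted p = 0.0446). Parp9 and Dtx3l overlap on opposite strands of chromosome 16, and the labels and headers do not state whether counting used strand. Their reads may therefore not be separate.

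Of the 6 other genes, 4 were lower (median -1.68). Cxcl10 encodes a chemokine that draws CXCR3-bearing T cells. It had 8.38, 10.4 and 6.32 normalised reads in Crlf2-deleted libraries, against 79.8, 127 and 52.2 in control libraries. This was a 10.2-fold lower level, the largest difference of the 37 (log2 fold change -3.35, SE 0.36, adjusted p = 0.00925). Ifi27l2a, a short interferon-induced gene, was the most abundant, at 438, 689 and 484 in Crlf2-deleted libraries, against 2123, 1620 and 1211 in control libraries (-1.62, SE 0.24, adjusted p = 0.0242). Its highest Crlf2-deleted library remained below its lowest control library. Xaf1, which binds and opposes the apoptosis inhibitor XIAP, had 33.1, 48.8 and 30.3 in Crlf2-deleted libraries, against 132, 155 and 91.97 in control libraries (-1.74, SE 0.25, adjusted p = 0.0213). Phf11b, a PHD-finger gene with near-identical neighbours, had 40.6, 48.2 and 46.5 in Crlf2-deleted libraries, against 119, 154 and 90.5 in control libraries (-1.41, SE 0.21, adjusted p = 0.0217). Both genes had non-overlapping groups. Ifi35 had the smallest difference (-0.56, adjusted p = 0.0932), and Ifi44 had too few reads to be precise (-2.98, SE 1.15, adjusted p = 0.258).

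**Figure D2:**
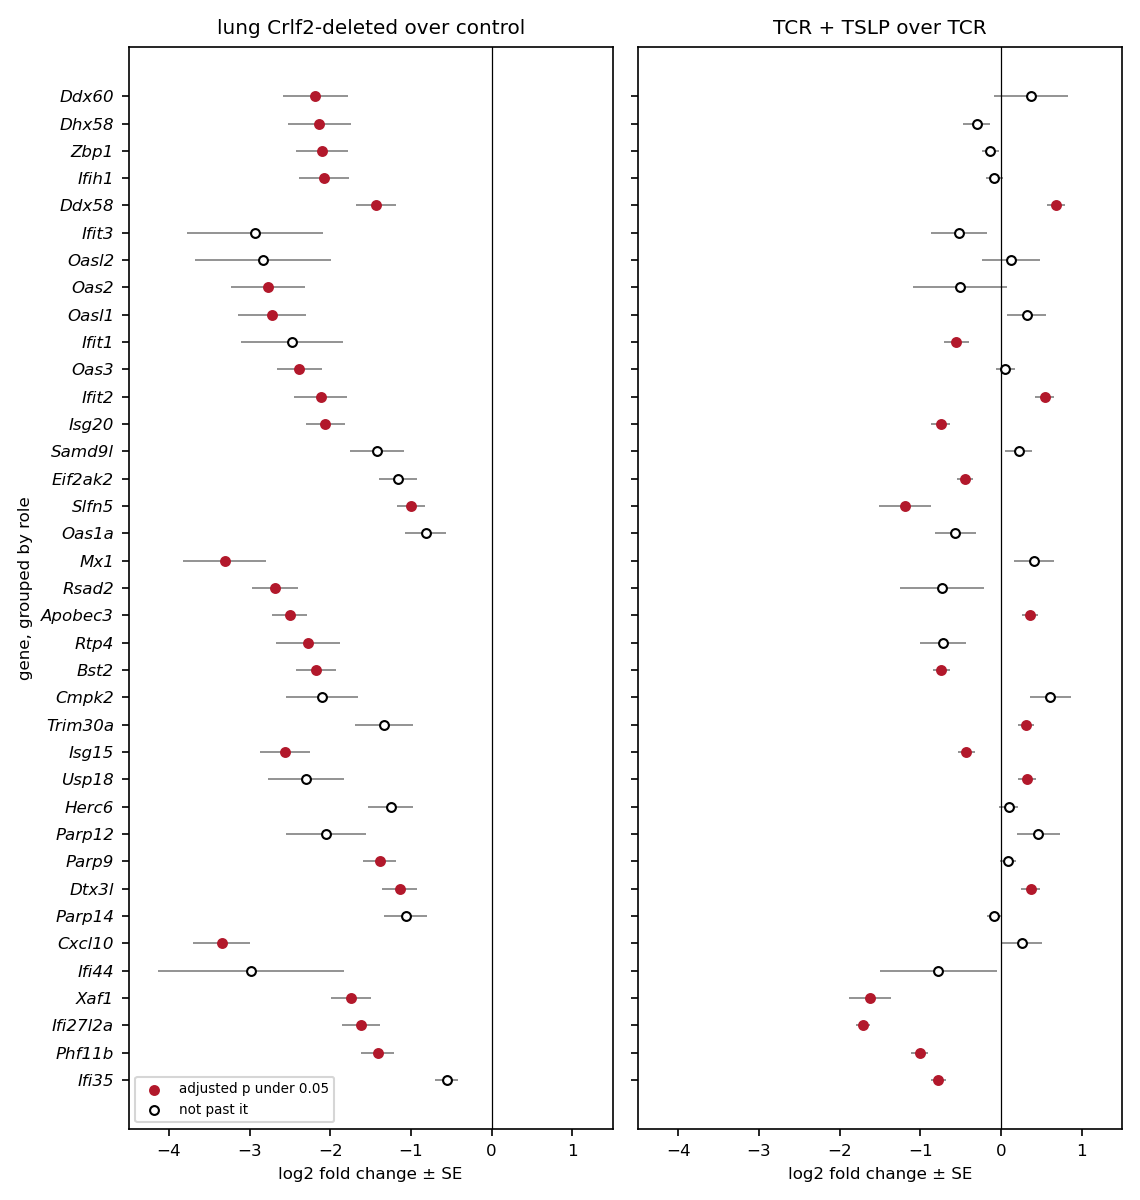
Log2 fold change with its SE for each of the 37 genes, in lung Crlf2-deleted over control libraries (left) and in TCR+TSLP over TCR libraries (right), with filled points past an adjusted p of 0.05. All 37 points lie below 0 on the left, with a median of -2.11, and they lie on both sides of 0 on the right, with a median of -0.08.

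The lung fold changes were also read by promoter match, without a test. The median lung log2 fold change was -2.18 over the 16 genes with a match, 11 of them called, and -2.06 over the 12 without one, 5 of them called. The position on the genome was spread: 6 of the 37 genes were on chromosome 5, which also holds Crlf2 (chr5:109554709-109559128), and the others on 13 further chromosomes.

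The genes of the pathway above the antiviral effectors were described from lists of ligands, receptors and signalling genes, interferon regulatory factors and sensing adaptors. Of 19 interferon genes measured, 16 had 0 reads in all lung libraries, Ifnb1 among them, and only Ifng passed the low-count filter. Ifng had 5.16, 8.25 and 3.71 normalised reads in Crlf2-deleted libraries, against 2.81, 8.21 and 13.5 in control libraries, so the groups overlapped (log2 fold change -0.53, SE 0.61, adjusted p = 0.731). None of the 4 receptor genes looked at passed the threshold. Ifnar1 had 199.1, 209.9 and 182 in Crlf2-deleted libraries, against 148, 162 and 147 in control libraries (0.37, SE 0.12, adjusted p = 0.174). Ifnar2 had 109, 136 and 113 in Crlf2-deleted libraries, against 80.4, 105 and 80.2 in control libraries (0.45, SE 0.16, adjusted p = 0.228). In both, every Crlf2-deleted library was above every control library, as in 10.5% of all genes tested, and the difference did not pass. Ifngr1 (0.24, adjusted p = 0.343) did not overlap between the groups, with 1082, 1056 and 1155 in Crlf2-deleted libraries, against 937, 1025 and 819 in control libraries. Ifngr2 had 34.2, 36.4 and 31.0 in Crlf2-deleted libraries, against 19.0, 20.5 and 81.0 in control libraries (-0.29, adjusted p = 0.842), and control library 3 was the high one.

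Signalling genes below these receptors were lower in part. The counts in this list and the next 2 stand beside 1.01% of all genes lower and 0.771% higher. Of 18 receptor and signalling genes tested, 4 were lower and 0 higher. Stat2 had 81.4, 94.8 and 77.6 normalised reads in Crlf2-deleted libraries, against 235, 211 and 172 in control libraries (log2 fold change -1.28, SE 0.16, adjusted p = 0.013). Its groups did not overlap, and Socs1, an inhibitor of Jak kinases that interferon induces, was lower as well (-1.12, adjusted p = 0.0264). Irf9, the DNA-binding partner of Stat2, had 74.9, 106 and 85.1 in Crlf2-deleted libraries, against 166, 150.5 and 133 in control libraries, and did not pass (-0.76, SE 0.17, adjusted p = 0.0695). Among 8 interferon regulatory factors, Irf7, itself an interferon-induced gene, was the one that passed. It had 84.5, 179.8 and 83.1 in Crlf2-deleted libraries, against 556, 441 and 353 in control libraries (-1.96, SE 0.34, adjusted p = 0.0446). Irf1 had 142.5, 175 and 158 in Crlf2-deleted libraries, against 232, 252 and 241 in control libraries (-0.61, SE 0.12, adjusted p = 0.0543). Of 14 sensing and adaptor genes 1 was lower, Tmem173 (STING), at -1.01 (adjusted p = 0.0354).

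**Figure D3:**
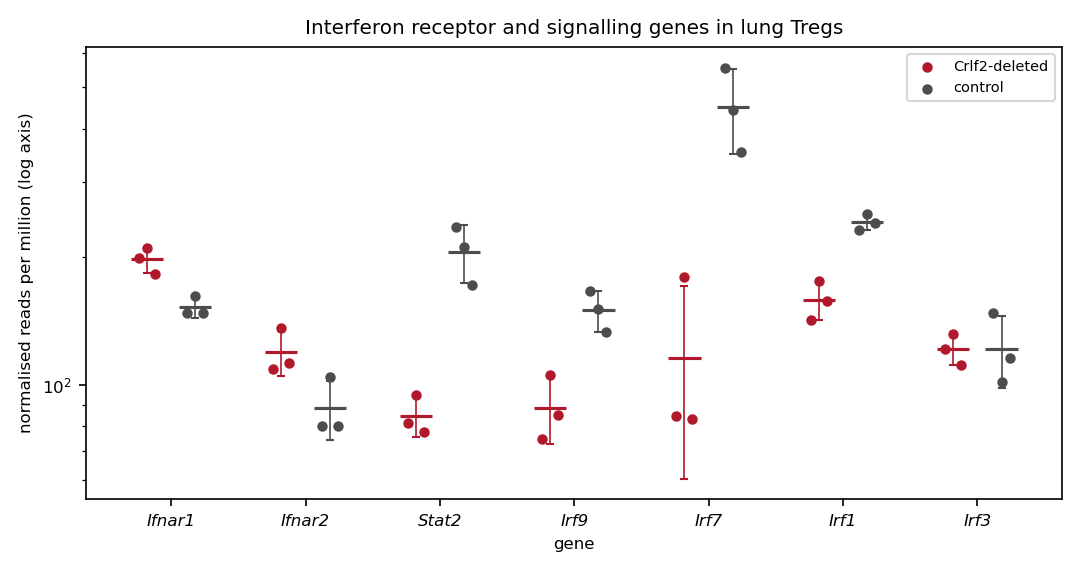
Normalised reads (CPM, log axis) of 7 interferon receptor, signalling and IRF genes in lung Crlf2-deleted (red) and control (grey) libraries, with each library as a point and the mean ± SD (n = 3 each) as bars. Stat2 and Irf7 were lower in Crlf2-deleted libraries past the threshold, while Ifnar1 and Ifnar2 stood slightly higher without passing it.

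From a list of interferon-induced genes outside the 37, 14 of 44 tested were lower, 0 were higher and the others did not pass (median -1.14), with Ly6a (-1.59, adjusted p = 0.0173), Daxx (-1.31) and Phf11a (-1.91) at the smallest p-values. Of 16 guanylate-binding proteins, immunity-related GTPases and other genes known for their response to interferon-gamma, 8 were lower and 0 higher (median -1.48), led by Gbp2 (-2.61, adjusted p = 0.00506), Iigp1 (-3.18) and Irgm1 (-1.53). Both counts stand beside 1.01% of all genes lower and 0.771% higher. These GTPases coat the vacuoles of intracellular pathogens. They were chosen as the nearest gene group, and the difference between their changes and those of the 37 genes was not tested.

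Markers of other cells were read in the same lung libraries. The summed 11 measured monocyte and macrophage markers were 1126, 1165 and 1135 normalised reads in Crlf2-deleted libraries, against 457, 599 and 4775 in control libraries. The 4 alveolar macrophage markers summed to 1483 to 1702 in Crlf2-deleted libraries, against 133, 395 and 3843 in control libraries, nearly all of it from Chil3, with Marco at 0 in control libraries 1 and 2. The 4 plasmacytoid dendritic cell markers summed to 7.50, 16.3 and 12.9 in Crlf2-deleted libraries, against 10.3, 17.1 and 39.2 in control libraries. The 5 Treg markers summed to 2198 to 2428 in Crlf2-deleted libraries, against 2406, 2340 and 1184 in control libraries. No gene of the 14 marker lists passed the threshold in either direction. The macrophage sum, most of it Lyz2, was thus higher in Crlf2-deleted libraries than in control libraries 1 and 2 and lower than in control library 3. In the same list Ly6c2 was lower, at 5.84, 8.49 and 4.75 in Crlf2-deleted libraries, against 30.2, 30.1 and 167 in control libraries. So was Ccr2, at 95.1, 98.3 and 84.4 in Crlf2-deleted libraries, against 118, 174 and 154 in control libraries. The 6 dendritic cell markers summed to 24.4, 26.8 and 33.1 in Crlf2-deleted libraries, against 42.4, 40.4 and 225 in control libraries. The 5 neutrophil markers summed to 46.6, 46.9 and 44.2 in Crlf2-deleted libraries, against 50.7, 50.6 and 422 in control libraries. Both sums were below the controls in every Crlf2-deleted library, as were 11.6% of all genes tested. The members of these lists did not all go that way. Cd209a and Retnlg were below every control library. Itgax had 7.30, 12.6 and 10.4 in Crlf2-deleted libraries, against 2.67, 2.05 and 81.9 in control libraries. Csf3r had 7.99, 8.41 and 7.47 in Crlf2-deleted libraries, against 5.35, 4.79 and 48.6 in control libraries. The part of any of these markers in the result was not tested.

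In spleen Tregs stimulated through the T cell receptor, the question was the added effect of TSLP, and here the antiviral genes did not move as a block. Of the 37, 16 passed (43.2%), against 45.8% of the 13214 genes tested, so the share was near the background. Of these, 6 were higher (22.7% of all genes) and 10 lower (23.1% of all genes). The median log2 fold change was -0.08, against 0.01 over all genes, and only 4 genes changed by 2-fold or more with the call, all of them lower. Both TCR+TSLP libraries were above both TCR libraries in 14 genes (38.1% of all genes) and below them in another 14 (37.3%). Summed over the 37 genes, the level was 1164 and 1150 normalised reads in TCR+TSLP libraries, against 1444 and 1450 in TCR libraries. Ifi27l2a made up much of that gap, at 94.5 and 92.8 in TCR+TSLP libraries, against 315 and 297.5 in TCR libraries. The median level of the 37 genes went the other way, at 13.03 and 13.39 in TCR+TSLP libraries, against 11.97 and 12.37 in TCR libraries. The counts rested on single libraries: 1 gene was higher and 7 lower without TCR+TSLP library 1 (12.7% and 14.9% of all genes), 2 and 7 without TCR+TSLP library 2 (10.6% and 13.1%), 7 and 14 without TCR library 1 (28.4% and 27.3%), and 8 and 12 without TCR library 2 (31.8% and 30.5%). The 5 B cell markers, of which 4 were lower, summed to 69.5 and 69.1 normalised reads in TCR+TSLP libraries, against 111 and 104 in TCR libraries. The 5 neutrophil markers, of which 2 were lower, summed to 10.8 and 11.4 in TCR+TSLP libraries, against 49.0 and 19.0 in TCR libraries. Most of this was Cxcr2, at 9.90 and 10.9 against 39.1 and 16.4. The 4 measured T cell markers, of which 2 were lower, summed to 1210 and 1192 in TCR+TSLP libraries, against 1859 and 1774 in TCR libraries. Most of that gap was Cd3d (286 and 263 against 654 and 613) and Cd3g (288 and 268.5 against 572 and 546). Cd3e differed little (276 and 268 against 300 and 279), and Cd4 went the other way (361 and 392.5 against 334 and 336). The 2 CD8 T cell markers were lower, and of 5 Treg markers 1 was higher and 1 lower. Of all genes 23.1% were lower. The part of these markers in the result was not tested.

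Transcript length went with the fold change in this comparison. The median log2 fold change was -0.76 over the 1208 tested genes under 1000 bases and 0.19 over the 3539 of 4000 bases or more, while in the lung comparison these medians were -0.07 and -0.04. Calls on short antiviral genes are therefore given with that trend removed. The cell type markers above are given with the trend left in. Ifi27l2a, with a transcript of 464 bases, had 94.5 and 92.8 normalised reads in TCR+TSLP libraries, against 315 and 297.5 in TCR libraries. Its log2 fold change was -1.71 (SE 0.09, adjusted p = 0.000159), the largest of the 37, but -0.57 (adjusted p = 0.00162) with the trend removed, under which Xaf1 (-1.73) and Slfn5 (-1.38) were larger. Bst2 had 77.0 and 68.2 in TCR+TSLP libraries, against 114 and 128 in TCR libraries (-0.74, SE 0.10, adjusted p = 0.00111), but stood at -0.01 (adjusted p = 0.96) with the trend removed. Isg15 turned from -0.43 (adjusted p = 0.0111) to 0.32 (adjusted p = 0.0346). The direction of Isg15 with TSLP is therefore not settled by these files.

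Of the 10 lower genes, Phf11b and Xaf1 kept their call and direction under every scaling tried, as did Ifi27l2a. Phf11b had 15.3 and 15.4 normalised reads in TCR+TSLP libraries, against 29.5 and 32.4 in TCR libraries (log2 fold change -1.01, SE 0.10, adjusted p = 0.000318, and -0.60 with the length trend removed). Xaf1 had 7.41 and 8.08 in TCR+TSLP libraries, against 30.8 and 17.0 in TCR libraries, with the TCR libraries wide apart (-1.62, SE 0.26, adjusted p = 0.00268). Ifi35 had 64.5 and 60.6 in TCR+TSLP libraries, against 103 and 111 in TCR libraries (-0.78, SE 0.09, adjusted p = 0.00052, and -0.49 with the length trend removed). Isg20 had 11.8 and 12.6 in TCR+TSLP libraries, against 19.3 and 21.6 in TCR libraries (-0.75, SE 0.12, adjusted p = 0.00164), and did not pass with the length trend removed (adjusted p = 0.0617). The others past the threshold were Slfn5 (-1.19), Ifit1 (-0.56) and Eif2ak2 (-0.44), none of which passed with library totals alone. Slfn5 had 20.2 and 19.0 in TCR+TSLP libraries, against 60.2 and 29.2 in TCR libraries, and stood at -0.57 without TCR library 1 and -1.60 without TCR library 2. It also did not pass in limma on log2(RPKM + 1) (adjusted p = 0.0902). Irf7, the upstream factor, was lower too (-0.81, SE 0.17, adjusted p = 0.00617, with the length trend left in).

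The 6 higher genes changed by less than 2-fold. Ddx58, the RIG-I sensor, had 16.6 and 16 normalised reads in TCR+TSLP libraries, against 10.5 and 9.86 in TCR libraries (log2 fold change 0.68, SE 0.12, adjusted p = 0.00256). Ifit2 had 16.4 and 15.4 in TCR+TSLP libraries, against 10.96 and 10.8 in TCR libraries (0.54, SE 0.12, adjusted p = 0.00654). In both genes the replicates were close and the groups apart. Dtx3l (0.37), Apobec3 (0.36), Usp18 (0.32) and Trim30a (0.31) were higher by smaller amounts. Dtx3l (adjusted p = 0.218) and Trim30a (adjusted p = 0.276) did not pass with the length trend removed. Ddx58, Ifit2, Apobec3 and Usp18 kept call and direction under every scaling tried, but Usp18 did not pass with DESeq2 (adjusted p = 0.135) or the replicate block (adjusted p = 0.0883), and 0 of the 6 higher genes passed with all 4 groups in 1 fit. A few antiviral genes had very few reads in the cultures: Oas2, Ifi44 and Ddx60 had under 10 reads in at least 1 spleen library, and Rsad2 had 11 to 31.

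The counts on the upstream lists stand beside 22.7% of all genes higher and 23.1% lower with TSLP. These lists are given with the transcript length trend left in, and whether their directions hold with it removed was not examined. Of 18 receptor and signalling genes 7 were higher and 1 was lower. Jak2 (log2 fold change 0.70, adjusted p = 0.000526), Stat3 (0.55) and Socs1 (0.68) had the smallest p-values of the list. Ifnar1 was the lower one, at 63.4 and 68.5 normalised reads in TCR+TSLP libraries, against 114 and 82.8 in TCR libraries (-0.58, SE 0.15, adjusted p = 0.0137). The TCR libraries differed from each other in this gene, but both were above the TCR+TSLP ones. Of 44 other interferon-induced genes 4 were higher and 14 lower (median -0.26), and of 17 interferon-gamma GTPases and related genes 5 were higher and 0 lower, with Gbp5 at the smallest p (0.89, adjusted p = 0.000311). Ifng had 4.17 and 4.52 in TCR+TSLP libraries, against 4.57 and 5.47 in TCR libraries (-0.21, SE 0.19, adjusted p = 0.394). Of the 19 interferon genes measured, 12 had 0 reads in these libraries.

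Set side by side, the comparisons share no libraries. Of the 23 genes lower in Crlf2-deleted lung Tregs, 4 were higher with TSLP, 7 were lower with TSLP and 12 did not pass there. Of all genes 22.7% were higher and 23.1% lower with TSLP, so these counts are not read as a relation between the comparisons. Of the 37 genes, 17 had a log2 fold change above 0 with TSLP and 20 below 0, while all 37 were below 0 in Crlf2-deleted lung Tregs. Apobec3 was lower in Crlf2-deleted lung libraries (-2.51) and higher with TSLP (0.36), and Xaf1 was lower in both (-1.74 and -1.62).

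Levels between genes were compared per transcript length, in the deposited RPKM (reads scaled for transcript length and library total). Ifi27l2a was the highest of the 37 over all 10 libraries, with means of 96.8 in TCR+TSLP, 244.6 in TCR, 263 ± 54.5 in lung Crlf2-deleted and 600.0 ± 146 in lung control libraries (SD, n = 3 in lung). Its individual TCR+TSLP values were 97.1 and 96.4, against 237 and 252 in TCR libraries. In lung they were 211, 320.0 and 257 in Crlf2-deleted libraries, against 768, 529.9 and 502 in control libraries, so control libraries were the highest and TCR+TSLP libraries the lowest. Bst2 was the next, with means of 45.4 in TCR+TSLP, 59.0 in TCR, 24.9 in Crlf2-deleted and 83.8 in control libraries. Ifi35 ranked after these, with means of 22.0 RPKM in TCR+TSLP, 29.3 in TCR, 25.7 in Crlf2-deleted and 28.2 in control libraries. Both TCR+TSLP values (22.6 and 21.5) were below both TCR values (26.6 and 32.0). The lung groups overlapped in RPKM, while in normalised reads every Crlf2-deleted library was below every control library.

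In 31 of the 37 genes the mean RPKM was higher in lung control than in TCR libraries, and in 29 every control lung library was above every TCR library. The same shares over all genes were not computed, so these counts are not read as particular to the 37 genes. Ifit3 had 24.0, 21.1 and 15.97 RPKM in lung control libraries, against 0.163 and 0.204 in TCR libraries, and Rsad2 had 3.52, 3.81 and 4.62 RPKM in lung control libraries, against 0.0932 and 0.0455 in TCR libraries. Both genes were thus near the floor of the cultures and well expressed in lung. Apobec3 went the other way, with 18.4, 13.1 and 14.7 RPKM in lung control libraries, against 29.4 and 38.2 in TCR libraries. These are levels without a test, because tissue, culture and the share of reads on the kept transcripts differ at the same time and cannot be told apart. That share was 14.9% to 23.6% of the authors' library total in lung and 37.8% to 44.5% in spleen.

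**Figure D4:**
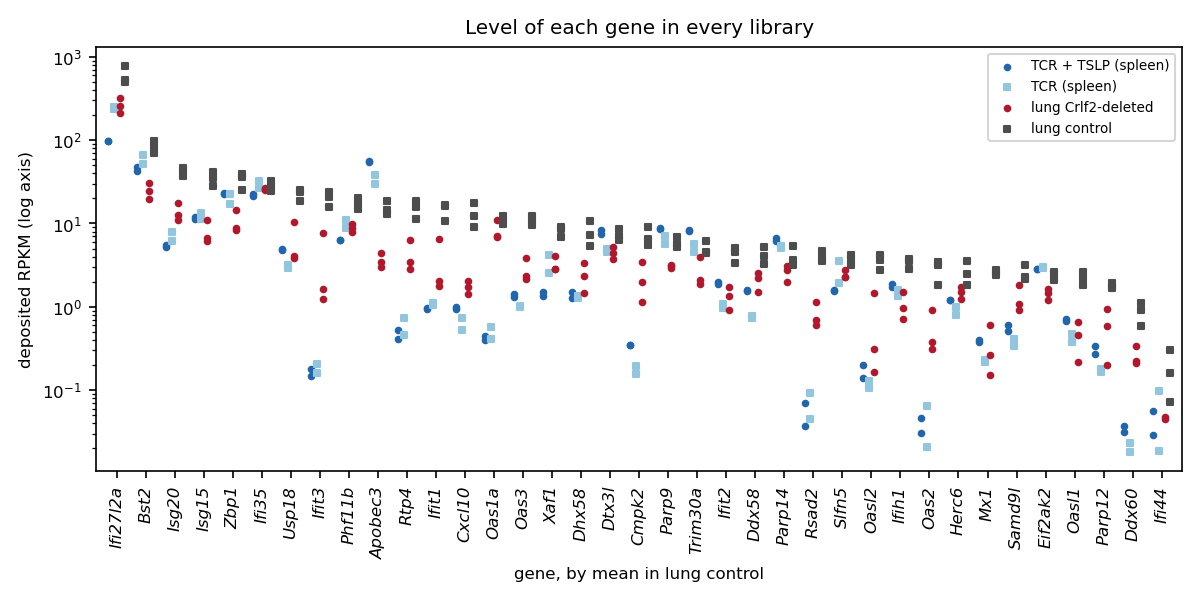
Deposited RPKM (log axis) of each of the 37 genes in all 10 libraries, ordered by the mean in lung control libraries, with circles for TCR+TSLP and lung Crlf2-deleted libraries and squares for TCR and lung control libraries. Control lung libraries are above TCR libraries throughout in 29 of the 37 genes, and 1 value of 0 (Ifi44, Crlf2-deleted library 3) is not drawn. The share over all genes was not computed.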

How the data were processed

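The authors deposited whole-read counts and RPKM values per RefSeq transcript, with 31682 transcripts and 1 library in each file, per the file headers. Bowtie2 2.2.6, TopHat2 2.2.1, bedtools 2.25.0, SAMtools 0.1.8, edgeR and the mm10 build come from the submitters' processing notes, without their roles. How reads were counted, and whether strand was used, the labels and headers do not state. The deposited RPKM were scaled by the authors to a library total larger than the reads listed. Per the labels, T cell receptor-stimulated Tregs went into stranded libraries of ribosome-depleted total RNA, and no kit is named separately for lung.

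The transcript with the highest mean count stood for each of 23992 symbols (4343 had several). Each comparison was fitted on its own libraries in R 4.3.3 with the quasi-likelihood test of edgeR 4.0.16 (TMM scaling, filterByExpr at a minimum count of 10, robust, two-sided). Adjusted p-values are Benjamini-Hochberg over all genes tested, come from this test, and are called under 0.05. The SE is the size of the log2 fold change over the root of F. The procedure was run on simulated counts drawn independently for each library, without a length trend or an outlying library, so that check does not cover these features of the data. Libraries of 1 group differed beyond sampling noise (chi-square per degree of freedom 5.80 to 161). Since no label names separate animals or cultures, the p-values reflect the spread between these libraries, which may be technical only.

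The 37 genes, the role, pathway and marker lists and the tests were chosen with earlier results of these data known. Values per library are given for the 12 genes with the smallest p in lung, the 8 with the smallest p with TSLP, the 3 of highest mean RPKM and fixed upstream genes, of which 1 is not reported here. Up to 3 genes of each pathway list by p are named. The values per library of Ifit1, Ifit3 and Mx1 in lung, of Isg15 with the length trend removed, and of the RPKM of Ifit3, Rsad2 and Apobec3 are outside this rule and were chosen after their values were seen, as were the printed promoters. Promoter sequences are RefSeq's, GRCm38.p6, matched by symbol. Alternatives were other scalings, DESeq2 1.42.0, limma 3.58.1 on log2(RPKM + 1 or 0.1), other filters, all 4 groups in 1 fit, the replicate block, summed transcripts, removal of a loess trend on transcript length (span 0.3), and leaving out each library.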

Additional observations from a re-analysis of the deposited data

How the results depend on the processing

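In the lung comparison the 37 log2 fold changes were below 0 under every alternative, and 0 genes of the 37 were higher past the threshold under any. The number lower was 23 (1.01% of all genes), against 36 with DESeq2 (3.92%). It was 16 with library totals alone (0.448%) and 16 with transcripts summed (0.565%). Of all genes 227 were called, against 867 with DESeq2, 856 and 804 with limma on log2(RPKM + 1) and log2(RPKM + 0.1), 873 with all 4 groups in 1 fit and 134 with transcripts summed. The median over the 37 genes was -1.18 and -1.65 in the limma fits. Leaving out each library gave 4 to 532 genes, 1 to 29 of the 37 lower and medians of -2.47 to -1.93. With TSLP, library totals alone left 8 higher and 6 lower (38.3% and 15.1% of all genes) with a median of 0.15. The limma fits gave 15 higher and 3 lower (43.0% and 9.45% of all genes, median 0.065) and 14 higher and 4 lower (42.4% and 10.3%, median 0.24). These scalings moved the median of all genes to 0.237, 0.196 and 0.33, so no direction of the 37 genes as a group holds there. With all 4 groups in 1 fit 1356 genes were called, 0 of the 37 higher and 5 lower (3.75% and 5.64% of all genes, median -0.0402). The median was -0.0418 without the low-count filter, -0.16 at a mean RPKM of at least 1 and -0.12 with the length trend removed, under which Isg15 was reversed (0.32). Leaving out each library gave 3212 to 8624 genes, 1 to 8 higher, 7 to 14 lower and medians of -0.15 to 0.01, the last without TCR library 2 (0.0058). The deviations of same-numbered libraries had weak correlations (-0.125 in spleen and 0.0838, -0.148 and -0.0447 in lung). With 2 or 3 libraries per group this cannot decide whether the numbers are a pairing. With the replicate block 5817 genes were called with TSLP, with 4 of the 37 higher and 10 lower (21.5% and 22.5% of all genes). In lung 121 genes were called with that block, with 25 of the 37 lower (0.700% of all genes). With the spleen numbers crossed, chosen after seeing the data, 7107 genes were called, with 6 and 11 of the 37 higher and lower. The cause of these shifts was not tested. Control library 2 of lung was the shallowest, with 1439675 reads on the kept transcripts.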
